A study of Mus musculus with 20 samples.

Results

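Transcript levels of 9 core genes of the Hedgehog pathway, Ptch1, Smo, Gli1, Gli2, Gli3, Sufu, Hhip, Gas1 and Boc, were compared between neural stem cells and the progenitors of the newborn mouse subventricular zone. They were chosen by name, as the receptors, transducers and transcription factors of a signal that is carried through the primary cilium, and are 9 of the 45705 genes in the table. Of these 9, 8 passed the filter on low values (a level of 1 RPKM or more in no fewer than 4 libraries of the 20) and were among the 27614 genes tested. Gli1 did not pass it and is described by its values.

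Hedgehog ligands bind Patched1 (Ptch1) on the receiving cell, with Boc, Gas1 and Cdon as co-receptors, while Hhip captures ligand at the cell surface. Ligand binding relieves the inhibition of Smoothened (Smo), which then enters the primary cilium and frees the Gli transcription factors from Sufu. Gli3 acts mainly as a repressor when no ligand is bound, Gli2 is the main activator, and Gli1, Ptch1 and Hhip are themselves transcribed in response to the signal. In the subventricular zone, Sonic hedgehog maintains stem cells and patterns the kinds of neurons that they make.

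RNA was measured in 5 populations of cells sorted by flow cytometry from Swiss Webster mice at postnatal day 5, with 4 libraries each, 1 from each of 4 batches. The periventricular tissue was microdissected from all pups of a litter, males and females together, so that each library held cells of pooled animals. Cells were separated by 4 surface antigens, CD133 (prominin 1), LeX (CD15), CD140a (the PDGF receptor alpha chain) and NG2. NSCs, the stem cells, carried CD133 and LeX but neither CD140a nor NG2. BNAP/GRP1 held bipotential neuron and astrocyte progenitors together with a glial-restricted progenitor that bears the same antigens. GRP2/MP3 likewise held a glial-restricted and a multipotential progenitor that the sort did not separate. GRP3 was a glial-restricted progenitor, and PFMP a multipotential progenitor named for its response to PDGF and FGF. No population was treated or carried an engineered allele, and polyadenylated RNA was amplified before the libraries were made. A lower level in such sorted bulk RNA can come from fewer cells that express the gene or from less RNA per cell, and these cannot be told apart.

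Some libraries stood apart before any Hedgehog gene was considered. BNAP/GRP1 of batch 4 had a median of 8.30 RPKM over all genes of the table, against at most 2.02 in the other 19 libraries, and held the highest value of the 20 libraries for 48.6% of the genes tested. NSC, GRP2/MP3 and GRP3 of the same batch also had raised medians (1.61, 0.977 and 2.02 RPKM), while the PFMP library of batch 4 and the 15 libraries of the other batches were at 0.237 RPKM or less. These 4 libraries had 37856 to 39689 genes above 0, against at most 31999 elsewhere, and are the ones whose depth could not be estimated. All 5 libraries of batch 3 had a summed level of 920 to 1043 RPKM for 8 lung epithelial markers, against at most 73.1 RPKM in the other batches. Most of it was Scgb1a1, a secretory protein of airway cells, at 839 to 964.8 RPKM in batch 3 and at most 13.6 RPKM elsewhere, whereas Sftpc was at 5.91 to 12.1 RPKM there and at up to 7.57 RPKM in other batches. The libraries of batch 3 also had the lowest value of their population for 33.6% of genes in all 5 populations at once. In the other 16 libraries the depth estimate ran from about 9460000 to 114000000 reads. NSC libraries also held more transcripts of 10 ependymal markers other than cilium genes than all 16 progenitor libraries. Their sums were 1383 to 4483 RPKM in NSCs and 103 to 1249 RPKM in the progenitors. In batch 3 they were close, at 1383 RPKM in NSCs and 1197 to 1249 RPKM in the progenitors. Of these 10, 3 (Mia, Rarres2 and Tm4sf1) passed the test in NSCs against the 4 progenitors, beside 1.98% of all genes tested. With the batch as a block in the model 9 of the 10 passed, beside 4.36% of all genes. None of the 10 was at 0 in an NSC library. Markers of astroglia and stem cells summed to 354 to 5956 RPKM in NSCs and 215 to 15028 RPKM in the progenitors. Taken gene by gene, 11 of 12 differences were positive in NSCs against the 4 progenitors (median 1.40). Of these 12, 1 (Hopx) passed limma and 4 had an unadjusted p under 0.05, beside 1.98% and 6.87% of all genes tested. With the batch block 4 passed (Hopx, Prom1, Sox9 and Thbs4), beside 4.36% of all genes. Prom1 encodes CD133, an antigen of the sort. Markers of oligodendrocyte progenitors, Pdgfra (CD140a) among them, summed to 15.6 to 3729 RPKM in GRP3 and 16.1 to 2765 RPKM in PFMP, against 2.95 to 53.1 RPKM in NSCs. Microglial markers summed to 152 to 8652 RPKM in BNAP/GRP1, 817 to 8416 RPKM in GRP2/MP3, and 2538 RPKM or more in all 5 libraries of batch 3. Pericyte markers summed to 132 to 7372 RPKM in GRP2/MP3, highest in batch 4. Against NSCs 0 markers of these 3 kinds passed limma in the populations named. With the batch block 6 oligodendrocyte progenitor markers passed in GRP3 and 6 in PFMP (2.6% and 2.79% of all genes called). In GRP2/MP3 3 microglial and 5 pericyte markers then passed (3.08%), and in BNAP/GRP1 0 microglial markers (2.09%). Endothelial markers summed to 11.1 to 262 RPKM in NSCs and 5.33 to 158 RPKM in the progenitors, with 8 of 8 differences positive in NSCs against the 4 progenitors (median 1.12), of which 0 passed limma and 1 had an unadjusted p under 0.05, the case for 6.87% of all genes tested. Against NSCs 6 of the 8 were lower in PFMP and 4 in GRP3 at that unadjusted p, beside 5.08% and 4.36% of all genes. Those of neuroblasts summed to 8.78 to 157 RPKM in NSCs and 1.83 to 608 RPKM in the progenitors. In NSCs against the 4 progenitors 10 of 10 differences were negative (median -0.97), and 0 passed limma or had an unadjusted p under 0.05. With the batch block, 6 of these 10 and 5 of the 8 endothelial markers had an unadjusted p under 0.05 in limma, and 0 passed. At that p 2445 of all genes tested were then higher in NSCs and 992 lower. The part of these other cells in the Hedgehog gene results was not tested.

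The start of a gene is one of the places where transcription factors can bind. Gli3 was the Gli factor that varied most between NSCs and the progenitors, and Ptch1 is the textbook target of Gli proteins. Windows at the starts of these 2 genes are therefore shown. Each holds the 250 bases before the RefSeq start of the gene in build GRCm38.p6, read on the strand of the gene, with the cytosine and guanine of every CpG in capitals. The Gli3 window lies at chr13:15463473-15463722 on the plus strand, and the Ptch1 window at chr13:63565736-63565985 on the minus strand.
Gli3: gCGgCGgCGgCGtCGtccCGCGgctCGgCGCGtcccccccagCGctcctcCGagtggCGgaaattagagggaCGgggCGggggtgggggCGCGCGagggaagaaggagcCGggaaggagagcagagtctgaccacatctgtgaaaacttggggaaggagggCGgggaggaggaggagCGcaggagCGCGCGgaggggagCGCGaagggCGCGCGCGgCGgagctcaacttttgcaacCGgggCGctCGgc
Ptch1: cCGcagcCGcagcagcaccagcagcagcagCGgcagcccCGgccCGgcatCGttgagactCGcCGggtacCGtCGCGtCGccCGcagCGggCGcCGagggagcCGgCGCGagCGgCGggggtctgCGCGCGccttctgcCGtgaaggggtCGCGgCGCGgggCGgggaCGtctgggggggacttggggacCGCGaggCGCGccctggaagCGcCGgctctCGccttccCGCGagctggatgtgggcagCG
Both windows were rich in CpG, with 34 in that of Gli3 and 41 in that of Ptch1, against a median of 6 over 32851 such windows, and their GC contents of 72.8% and 78.4% compare with a median of 52.4%. In the GENCODE vM21 annotation both windows fall inside the span of their gene, before an internal start, and in none of its exons, while the Gli3 window overlaps an exon of Gm6556 on the other strand. Promoter windows were at hand for 7 of the 9 genes, and not for Boc and Gli1. The letters GACCACCCA, a Gli binding motif searched on both strands, occurred in 0.225% of all windows and in 0 of these 7. An X-box, searched on both strands and being the motif of the RFX factors of cilium genes, occurred in 0.374% of all windows, in 0 of the 7 Hedgehog genes, in 2 of 28 primary cilium genes (Bbs7 and Mks1) and in 0 of 21 motile cilium genes. Matches and their absence describe these letters in these windows only.

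Boc, an immunoglobulin-domain co-receptor that binds Hedgehog ligands beside Ptch1, was the Hedgehog gene whose level differed between the stem cells and each of the progenitors. It lies on chr16:44485049-44558897 (minus strand, GRCm38), and its exons overlap no other annotated gene. In NSCs its levels were 19.9, 22.0, 5.66 and 13.2 RPKM in batches 1 to 4. BNAP/GRP1 had 0.332, 0.582, 0.251 and 8.69 RPKM. The last of these is the library with the highest median, and it was the only progenitor value above any NSC value. In GRP2/MP3 Boc was measured at 0.0227, 0.282, 0.254 and 0.557 RPKM. GRP3 had 0.371, 0.191, 0.449 and 1.40 RPKM, and PFMP 0.135, 0.256, 0.304 and 0.969 RPKM. Only 6 of the 20 libraries reached 1 RPKM, namely the 4 NSC libraries and those of BNAP/GRP1 and GRP3 from batch 4. Boc therefore passed the filter, which asks for 1 RPKM in 4 libraries, only through the NSC libraries in which it was high. In NSC libraries Boc lay at the 80.9 to 90.9 percentile of all genes, and in BNAP/GRP1 of batch 4 at the 52.5 percentile.

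The mean level of Boc was 15.2 ± 7.38 RPKM in NSCs (SD, n = 4), against 2.46 ± 4.15 (BNAP/GRP1), 0.279 ± 0.219 (GRP2/MP3), 0.603 ± 0.542 (GRP3) and 0.416 ± 0.376 (PFMP). In these terms NSCs held 6.17 times the RPKM of BNAP/GRP1, 54.5 times that of GRP2/MP3, 25.2 times that of GRP3 and 36.5 times that of PFMP. Single libraries of batch 4 moved these ratios, to 39.1 without that of BNAP/GRP1, 45.1 without that of GRP3 and 65.6 without that of PFMP. In the 3 NSC libraries with an estimated depth this corresponds to 1128 to 2897 reads, and in 13 progenitor libraries to 3 to 345 reads. On the log2(RPKM + 1) scale, which understates the change of low genes, Boc differed from NSCs by -2.70 (BNAP/GRP1), -3.53 (GRP2/MP3), -3.24 (GRP3) and -3.40 (PFMP), each with an SE of 0.63. The adjusted p of limma over all genes tested was 0.0439, 0.00363, 0.00812 and 0.0046 in this order. NSCs against the mean of the 4 progenitors gave 3.22 (SE 0.49, adjusted p = 0.000432 with limma). A gene was called at an adjusted p under 0.05. Of all genes tested, 0.76% were called for BNAP/GRP1 against NSC, 1.12% for GRP2/MP3, 1.05% for GRP3, 1.14% for PFMP and 1.98% for NSC against the 4 progenitors.

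Within each batch, Boc was lower in 16 of 16 progenitor libraries than in their batch's NSC library, as was the case for 3.28% of the genes tested. All 4 NSC libraries lay above the 15 progenitor libraries other than BNAP/GRP1 of batch 4, which held for 1.26% of genes. With that library included the groups overlapped. The call in BNAP/GRP1 was the least stable: without that library Boc stood at -3.40 (adjusted p = 0.000498 with limma), but the call was lost in 21 of 24 fits that left out a library or a batch (adjusted p = 0.0984 without batch 3) and with a pseudocount of 0.1 (0.187). In the other 3 populations the call was kept without batch 3 (adjusted p = 0.0134 for PFMP, 0.0181 for GRP3 and 0.0106 for GRP2/MP3) and lost without batch 1 or without batch 2 (adjusted p of 0.249 to 0.517, with differences of -2.90 to -3.32).

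**Figure D1:**
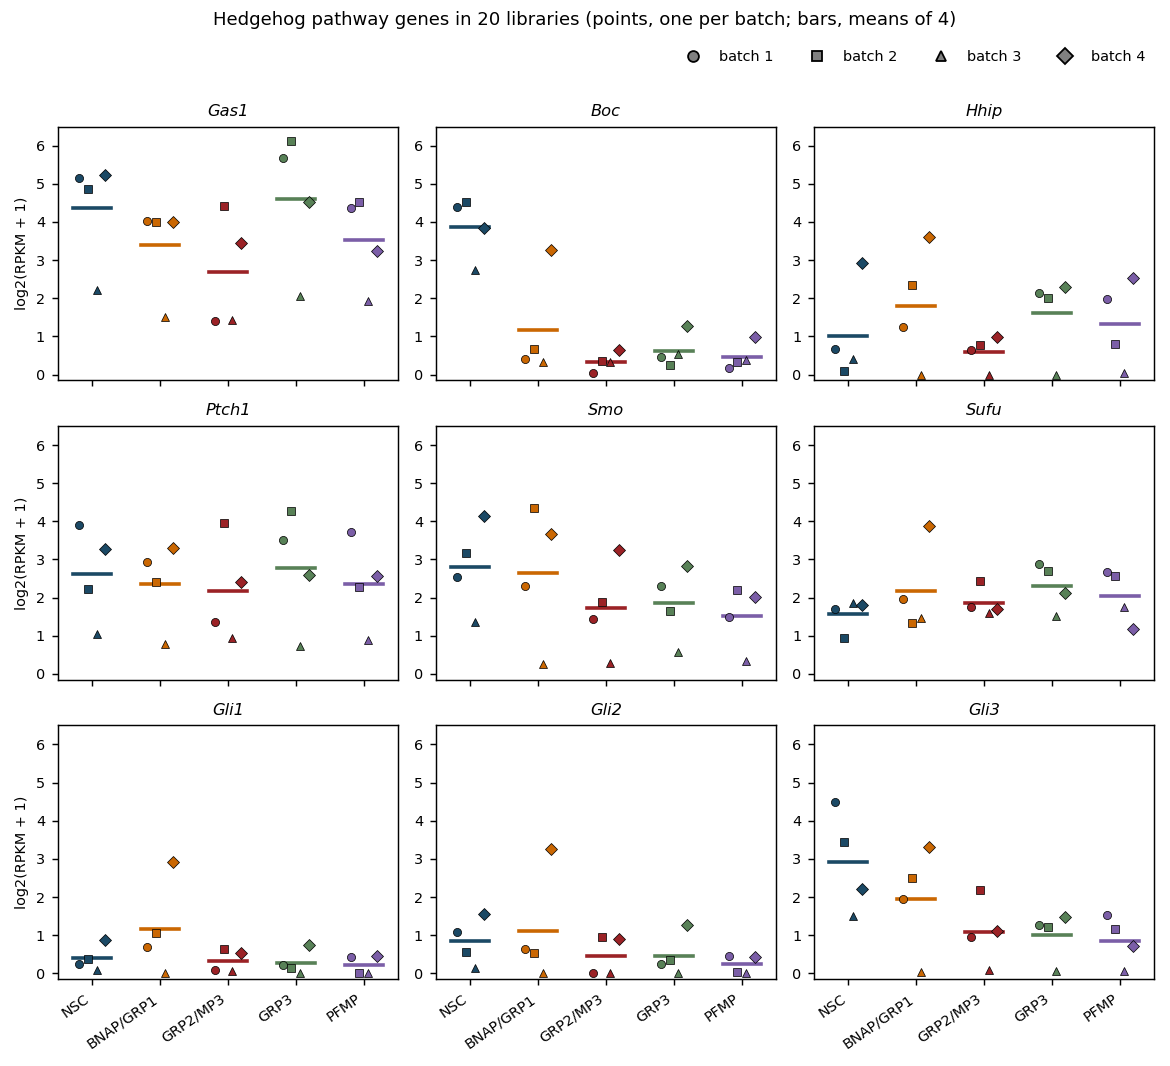
Levels of the 9 Hedgehog genes, 1 panel each, as log2(RPKM + 1) on the vertical axis for the 5 populations on the horizontal axis, with 1 marker shape for each of the 4 batches and a bar at the mean. Boc stands at 5.66 to 22.0 RPKM in NSC libraries and at most 1.40 RPKM in 15 of the 16 progenitor libraries, with BNAP/GRP1 of batch 4 at 8.69 RPKM, while the other panels overlap between populations.

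Gas1, a membrane-anchored co-receptor that shares its role with Boc and Cdon, had the highest RPKM of the 9 genes in 16 of the 20 libraries, and NSCs did not stand apart in it. It is on chr13:60174405-60177365 (minus strand), and 19.9% of its exon bases are shared with the antisense transcript Gm48488, whose reads cannot be told apart from those of Gas1, since the strand setting of the counting is not given in the sources used here. Its NSC levels were 34.5, 28.2, 3.64 and 36.5 RPKM. GRP3 held 50.5, 68.0, 3.18 and 21.8 RPKM, so that in batches 1 and 2 this population was above NSCs. BNAP/GRP1 had 15.2, 15.1, 1.86 and 15.1 RPKM, GRP2/MP3 had 1.66, 20.4, 1.69 and 9.96 RPKM, and PFMP had 19.6, 22.0, 2.78 and 8.49 RPKM. These 12 libraries were each below the NSC library of their batch. The fitted differences from NSCs were -0.98 (BNAP/GRP1), -1.69 (GRP2/MP3), 0.23 (GRP3) and -0.85 (PFMP), with an SE of 0.96, and none passed the test. By mean RPKM the populations ran from GRP3 (35.9 ± 29.0, n = 4) and NSC (25.7 ± 15.1) to PFMP (13.2 ± 9.12), BNAP/GRP1 (11.8 ± 6.64) and GRP2/MP3 (8.43 ± 8.90), with neighbours in this order within their spread.

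Ptch1, the receptor and also a target of the signal, gave no difference between populations that passed the test. It is encoded on chr13:63508328-63573598 (minus strand). In NSCs Ptch1 was measured at 13.9, 3.68, 1.06 and 8.76 RPKM, and in GRP3 at 10.5, 18.4, 0.654 and 5.01 RPKM. BNAP/GRP1 held 6.60, 4.27, 0.709 and 8.88 RPKM. The levels were 1.56, 14.6, 0.906 and 4.30 RPKM in GRP2/MP3, and 12.1, 3.89, 0.838 and 4.90 RPKM in PFMP. In every population the batch 3 library was lowest, and 11 of 16 progenitor libraries lay below the NSC library of their batch while 5 lay above. Differences from NSCs on the log2 scale were -0.26, -0.45, 0.16 and -0.25 in BNAP/GRP1, GRP2/MP3, GRP3 and PFMP (SE 0.88), and their signs changed when single libraries or batches were left out.

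Hhip, a membrane protein that binds and sequesters Hedgehog ligands and is induced by the signal, was low and uneven. Its gene is on chr8:79965851-80058006 (minus strand). NSC levels were 0.580, 0.0595, 0.314 and 6.53 RPKM, so that the batch 4 library carried the NSC mean. BNAP/GRP1 had 1.35, 4.08, 0 and 11.1 RPKM, and GRP3 had 3.41, 2.99, 0 and 3.90 RPKM. GRP2/MP3 held 0.572, 0.725, 0 and 0.962 RPKM and PFMP 2.97, 0.738, 0.0194 and 4.74 RPKM. In the 3 libraries of batch 3 at 0, 3 reads would have given 0.0029 to 0.00502 RPKM. Of the 16 progenitor libraries, 8 were below and 8 above the NSC library of their batch, and the differences of 0.78, -0.41, 0.60 and 0.32 (SE 0.81) in the order given for Ptch1 did not pass the test.

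Smo, the membrane protein that passes the signal on inside the cilium, was higher in NSCs within nearly every batch, but passed no test. The gene is on chr6:29735503-29761365 (plus strand). Its NSC levels were 4.87, 7.96, 1.58 and 16.8 RPKM. BNAP/GRP1 held 3.96, 19.5, 0.192 and 11.8 RPKM, the second of which exceeded every other Smo value. Levels in GRP2/MP3 were 1.74, 2.71, 0.230 and 8.53 RPKM, in GRP3 3.96, 2.16, 0.499 and 6.11 RPKM, and in PFMP 1.83, 3.60, 0.265 and 3.04 RPKM. In 15 of 16 progenitor libraries Smo was below the NSC library of the same batch, where 6.13% of genes had at least 15, and the exception was BNAP/GRP1 of batch 2. Against NSCs the differences were -0.16, -1.08, -0.96 and -1.29 (SE 0.86), and NSCs stood 0.87 above the 4 progenitors together (SE 0.68, unadjusted p = 0.214 with limma), which did not pass the test.

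Sufu, the cytoplasmic protein that holds Gli factors back, was the only one of the 8 genes tested whose mean on the log2 scale was lowest in NSCs. It is located on chr19:46396896-46488804 (plus strand). NSCs had 2.26, 0.924, 2.603 and 2.49 RPKM. BNAP/GRP1 held 2.91, 1.52, 1.78 and 13.8 RPKM, the last again in the library with the highest median. GRP2/MP3 held 2.36, 4.41, 2.00 and 2.25 RPKM of Sufu, GRP3 was at 6.37, 5.46, 1.88 and 3.33 RPKM and PFMP at 5.42, 4.90, 2.35 and 1.26 RPKM. Of 16 progenitor libraries, 10 were above and 6 below the NSC library of their batch. The differences from NSCs, 0.59, 0.29, 0.73 and 0.46 (SE 0.60), did not pass the test, and without BNAP/GRP1 of batch 4 and with the batch in the model that of BNAP/GRP1 was -0.07.

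Gli3, the Gli protein that acts mainly as a repressor, came next to Boc in the size of its difference between NSCs and the progenitors. The gene spans chr13:15463235-15730026 (plus strand), and 1.96% of its exon bases overlap Gm6556. In NSCs Gli3 stood at 21.3, 9.95, 1.83 and 3.60 RPKM, a wide range in which batch 3 was lowest. In BNAP/GRP1 it was at 2.88, 4.65, 0.0200 and 8.86 RPKM. GRP2/MP3 had 0.947, 3.57, 0.0633 and 1.18 RPKM. Within a batch, all 4 of these GRP2/MP3 libraries were below NSC, as were 3 of the BNAP/GRP1 libraries. In GRP3 the values were 1.43, 1.34, 0.0390 and 1.79 RPKM, and in PFMP 1.86, 1.22, 0.0426 and 0.637 RPKM, again all below the NSC library of their batch. In total 15 of 16 progenitor libraries lay below, against 6.13% of genes with at least 15, and the exception was BNAP/GRP1 of batch 4.

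Mean Gli3 was 9.18 ± 8.83 RPKM in NSCs (SD, n = 4), 4.10 ± 3.70 (BNAP/GRP1), 1.44 ± 1.501 (GRP2/MP3), 1.15 ± 0.765 (GRP3) and 0.942 ± 0.782 (PFMP). In NSCs the mean was 2.24, 6.37, 7.99 and 9.75 times those of the 4 progenitors in this order. Without NSC of batch 1 these ratios were 1.25, 3.56, 4.46 and 5.44, while that for BNAP/GRP1 was 3.65 without its batch 4 library and that for GRP2/MP3 12.6 without its batch 2 library. On the log2 scale the differences were -0.96, -1.82, -1.90 and -2.05 (SE 0.75), with adjusted p = 0.866, 0.596, 0.562 and 0.401 in limma, so that none passed the test. With the batch as a block, which compares each progenitor with the NSCs of its own batch, PFMP passed (adjusted p = 0.0408, with 2.79% of all genes called) and NSCs against the 4 progenitors passed (1.68, adjusted p = 0.0225, with 4.36% called), while GRP3 (0.0644, 2.6% called), GRP2/MP3 (0.0736, 3.08%) and BNAP/GRP1 (0.393, 2.09%) did not. With batch 3 left out as well, neither passed (-2.25 for PFMP, adjusted p = 0.134, 2.51% called, and 1.76 for NSCs against the 4 progenitors, adjusted p = 0.116, 3.53% called). Without BNAP/GRP1 of batch 4 the blocked comparison passed for GRP2/MP3 (0.0205, 4.26% of all genes called), GRP3 (0.0185, 3.5%), PFMP (0.00965, 4.11%) and NSCs against the 4 progenitors (0.00297, 6.04%), though not for BNAP/GRP1 (0.136, 2.93%).

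Gli2, the main activator, was low in most libraries. It is found on chr1:118834132-119053619 (minus strand) and reached 1 RPKM in exactly 4 libraries, the least that the filter allows. NSC values were 1.13, 0.483, 0.0950 and 1.95 RPKM, and those of BNAP/GRP1 0.546, 0.444, 0 and 8.63 RPKM. The highest value of all was thus in BNAP/GRP1 of batch 4. GRP2/MP3 had 0.00555, 0.920, 0 and 0.864 RPKM, GRP3 0.177, 0.271, 0 and 1.41 RPKM, and PFMP 0.379, 0.0282, 0 and 0.348 RPKM. All 4 progenitor libraries of batch 3 were at 0, where 3 reads would give 0.00383 to 0.00663 RPKM. The differences from NSCs were 0.27, -0.38, -0.38 and -0.61 (SE 0.59), and that of BNAP/GRP1 turned to -0.21 when the libraries were quantile normalized.

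Gli1, the transcriptional activator whose own transcription is the usual readout of an active pathway, was the lowest of the 9 genes by the number of libraries that reached 1 RPKM. Its position is chr10:127329882-127341974 (minus strand), and 5.31% of its exon bases are shared with the antisense gene Gm47200 and 1.24% with Arhgap9. NSCs had 0.185, 0.292, 0.0572 and 0.840 RPKM, and BNAP/GRP1 had 0.623, 1.08, 0.0138 and 6.55 RPKM. These last included the only libraries of the 20 at or above 1 RPKM, both BNAP/GRP1. GRP2/MP3 held 0.0555, 0.567, 0.0473 and 0.458 RPKM, GRP3 0.170, 0.1004, 0 and 0.669 RPKM, and PFMP 0.357, 0, 0 and 0.374 RPKM. In the 3 libraries at 0, the level that 3 reads would give was 0.00815 (GRP3), 0.0362 (PFMP of batch 2) and 0.00665 RPKM (PFMP of batch 3). When all genes were tested without a filter, Gli1 in BNAP/GRP1 differed from NSCs by 0.78 (adjusted p = 0.794 with limma), and in the other progenitors by -0.06 to -0.17.

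**Figure D2:**
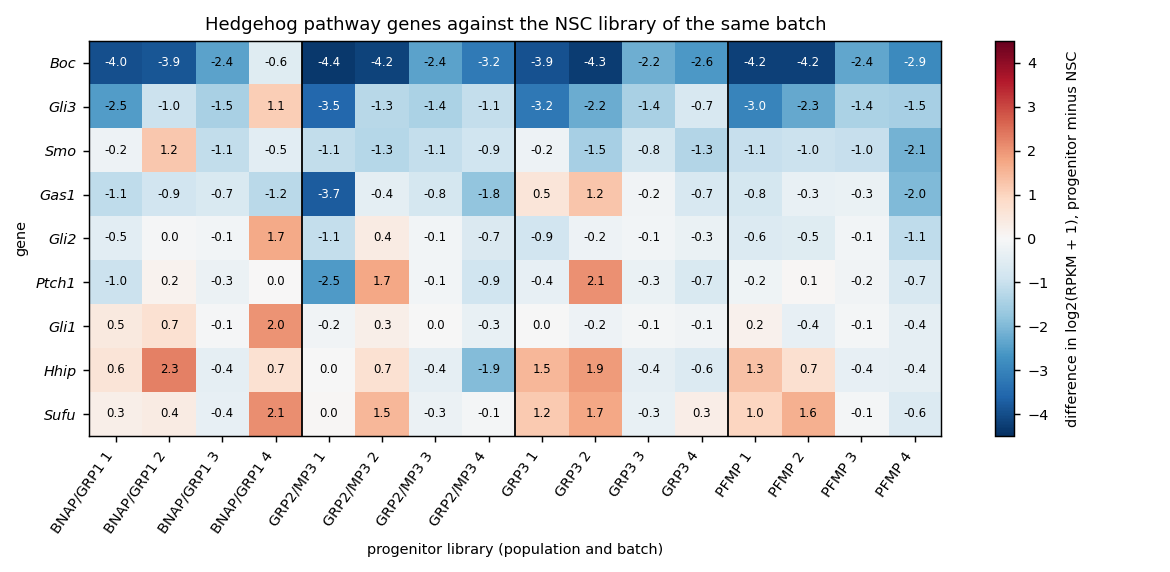
Difference in log2(RPKM + 1) of each progenitor library from the NSC library of its batch, by colour and number, for the 9 Hedgehog genes in the vertical direction and the 16 progenitor libraries in the horizontal. The Boc row is below 0 in 16 of 16 libraries, the Gli3 and Smo rows in 15, and the Sufu row in 6.

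Counted over the 8 genes tested, Boc was the 1 gene that fell in each of the 4 progenitors, and 0 Hedgehog genes rose with limma. At an unadjusted p under 0.05, Gli3 joined Boc in GRP2/MP3, GRP3 and PFMP, all lower than in NSCs, as were 4.92%, 4.36% and 5.08% of all genes tested at that p. All of these comparisons share the same 4 NSC libraries. The 8 genes had a median difference from NSCs of -0.21 (BNAP/GRP1), -0.77 (GRP2/MP3), -0.11 (GRP3) and -0.73 (PFMP), beside medians over all genes tested of 0.38, -0.08, 0.05 and -0.20. Quantile normalization moved the median over all genes to 0.09 in BNAP/GRP1 and 0.07 in PFMP. In NSCs against the 4 progenitors the Hedgehog median was 0.55, with 6 differences positive and 2 (Sufu and Hhip) negative, beside -0.07 over all genes.

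**Figure D3:**
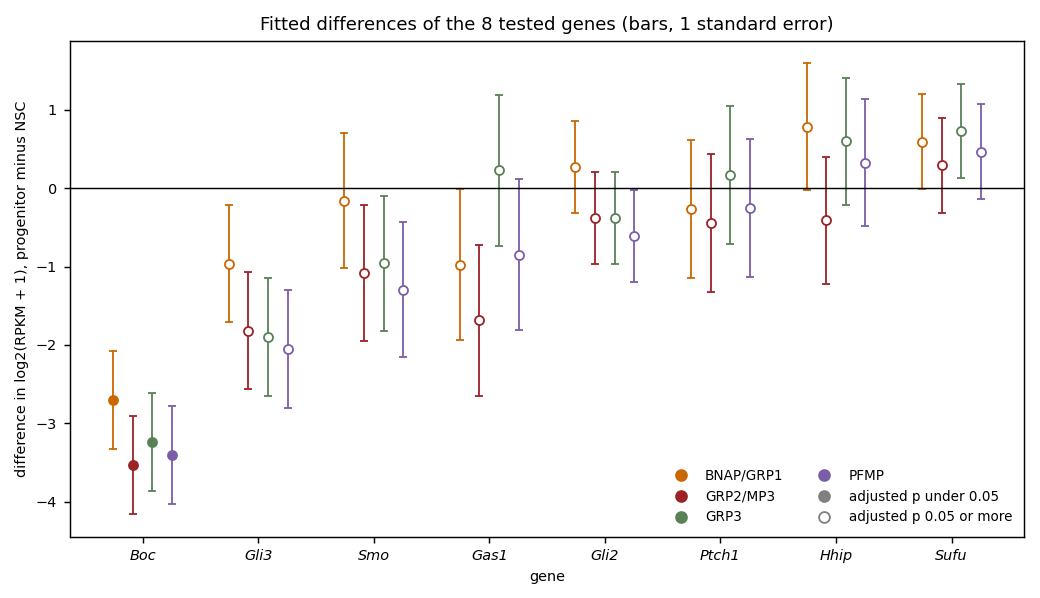
Fitted difference of each progenitor population from NSC in log2(RPKM + 1), with bars of 1 SE, for the 8 Hedgehog genes tested, with filled points where the adjusted p of limma was under 0.05. Filled points appear for Boc only, at -2.70, -3.53, -3.24 and -3.40.

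Between the progenitors themselves, no Hedgehog gene passed the test in any of the 6 direct comparisons with limma, in which 0% of all genes tested were called. In single direct comparisons 79 to 1260 of the 27614 genes tested were higher and 5 to 211 lower at an unadjusted p under 0.05. At that p limma gave 0 of 48 combinations of a Hedgehog gene and a comparison, a count that does not set them apart from all genes. The lowest was that of Gas1 in GRP2/MP3 against GRP3, with a difference of -1.91 (unadjusted p = 0.0601, adjusted p = 1.00).

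The sum of the 9 genes, taken as RPKM, was 98.8, 73.5, 16.8 and 90.7 in NSCs of batches 1 to 4. BNAP/GRP1 came to 34.4, 51.3, 4.82 and 93.4 and GRP2/MP3 to 8.91, 48.2, 5.19 and 29.1. GRP3 was at 76.8, 98.9, 6.70 and 45.4 and PFMP at 44.7, 36.6, 6.60 and 24.7. Every population was lowest in batch 3. By single gene, mean RPKM over the 5 libraries of batch 3 against the other 15 was 2.63 against 24.5 for Gas1, 0.833 against 8.08 for Ptch1, 0.552 against 6.57 for Smo and 0.398 against 4.35 for Gli3. Boc (1.38 against 4.596) and Sufu (2.12 against 3.98) differed less between batch 3 and the rest.

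The remaining genes of the pathway were taken from 4 lists. Among 10 genes of the ligands and their release, 6 were tested, and 0 passed limma in any comparison with NSCs (1 at an unadjusted p under 0.05 in NSCs against the 4 progenitors, where 6.87% of all genes were), with a median of 0.01 in NSCs against the 4 progenitors. With the batch block, Hhatl was higher in NSCs (1.74, adjusted p = 0.0365). Shh reached 1 RPKM in 3 libraries and was at 0 in 6, with its highest value of 8.02 RPKM in BNAP/GRP1 of batch 4. Dhh (highest 10.3 RPKM) reached 1 RPKM in 3 libraries and Ihh (highest 17.04 RPKM) in 4, their highest values being in the same library. Every library in which one of these ligands, which signal to cells that carry Ptch1, reached 1 RPKM was among the 4 of batch 4 with raised medians.

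Of 18 tested genes of signal reception beside the 9, which have a median of 0.03 in NSCs against the 4 progenitors, Gpc4 passed the test. This glypican, a cell surface heparan sulfate proteoglycan, was at 30.1, 15.5, 6.29 and 24.7 RPKM in NSCs and at 0 to 7.06 RPKM in the 16 progenitor libraries, a difference of 2.75 (SE 0.58, adjusted p = 0.01 with limma). With the batch block Gpc4 fell in each progenitor (adjusted p = 0.000744 to 0.00778 in limma), and without it in none. Cdon, a co-receptor related to Boc, ranged from 0.240 to 29.2 RPKM, highest in GRP3 of batch 2, with NSCs 0.17 above the progenitors (SE 0.92), and did not pass. Evc (-0.52), Evc2 (0.19) and Gpr161 (-0.61) also did not pass (adjusted p = 1.00 each in limma).

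Of 18 cytoplasmic regulators tested, 0 passed limma (3 at an unadjusted p under 0.05 in NSCs against the 4 progenitors, beside the 6.87% of all genes), with a median of 0.06. Kif7, the kinesin of the cilium tip that organizes Gli and Sufu, differed by -0.24 (SE 0.39, adjusted p = 1.00 with limma). Tulp3, which carries receptors such as Gpr161 into cilia, was 2.30 higher in NSCs without passing (SE 0.67, adjusted p = 0.098 in limma), and with the batch block it passed (adjusted p = 0.00616), as did the kinase gene Stk36 (2.17, adjusted p = 0.0115). Spop, a ubiquitin ligase adaptor that targets Gli proteins, fell in BNAP/GRP1 with the block (-2.04, adjusted p = 0.0445 in limma). Of 15 genes listed as targets, 0 passed limma in any comparison with NSCs (1 at an unadjusted p under 0.05 in NSCs against the 4 progenitors, again beside 6.87%), with a median of -0.30. With the block, Sfrp1 was higher in NSCs (2.43, adjusted p = 0.00139 in limma), and Olig2, the oligodendrocyte lineage factor, was higher in GRP3 (4.86, adjusted p = 0.00986) and PFMP (4.13, adjusted p = 0.032).

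The primary cilium is the organelle through which the pathway signals. Of 32 primary cilium genes tested, 9 were higher in NSCs than in the 4 progenitors, with a median of 1.83 and 32 of 32 differences positive, beside the 1.98% of all genes called. They were B9d1 (4.25), Dync2li1 (3.60), Tmem216 (3.07), Tctn2 (2.97), Tmem67 (2.69), Ift122 (2.51), Ift172 (2.496), Ift88 (2.47) and Bbs2 (1.83). B9d1, Tctn2, Tmem67 and Tmem216 form the transition zone at the base of the cilium, the Ift proteins and the dynein chain Dync2li1 move cargo along it, and Bbs2 belongs to the BBSome. Ift88, without which cilia do not form, was at 42.2, 25.0, 4.81 and 16.8 RPKM in NSCs and at 0.426 to 6.67 RPKM in the progenitors, so that the lowest NSC value overlapped the highest progenitor value. Arl13b, a small GTPase of the ciliary membrane, was 1.34 higher (SE 0.49, adjusted p = 0.316 with limma) and did not pass. Against single progenitors, 4 of the 32 fell for PFMP, 2 for GRP3, 5 for GRP2/MP3 and 1 for BNAP/GRP1, with Tmem216 in each of them. Of all genes tested 1.14%, 1.05%, 1.12% and 0.76% were called in these comparisons, in this order. Kif3a, a subunit of the anterograde motor, was among the 5 in GRP2/MP3. With the batch block 21 of the 32 were higher in NSCs against the 4 progenitors (4.36% of all genes called). Then 12 fell for PFMP (2.79% of all genes called), 14 for GRP3 (2.6%), 20 for GRP2/MP3 (3.08%) and 14 for BNAP/GRP1 (2.09%).

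Motile cilium genes mark multiciliated cells such as ependymal cells. Of 24 tested, 18 were higher in NSCs against the 4 progenitors (median 3.41, 23 of 24 positive), beside 1.98% of all genes called. Against single progenitors 16 fell for PFMP, 15 for GRP3, 14 for GRP2/MP3 and 9 for BNAP/GRP1. Of all genes tested 1.14%, 1.05%, 1.12% and 0.76% were called there. With the batch block 22 were higher (4.36% of all genes called), and 20, 19, 19 and 18 fell in the same order. The shares of all genes called were then 2.79%, 2.6%, 3.08% and 2.09%. The 18 called without the block were Ccdc113, Ccdc40, Ccno, Cfap43, Cfap44, Cfap52, Dnah9, Dnaic1, Dnaic2, Drc1, Foxj1, Mcidas, Rsph1, Rsph4a, Rsph9, Spag6, Tekt1 and Tekt4. Foxj1, the transcription factor that switches on the motile cilium program, was at 141, 352, 34.3 and 33.1 RPKM in NSCs, at 9.42 RPKM in BNAP/GRP1 of batch 4, and at no more than 2.19 RPKM in the other 15 progenitor libraries (5.80 higher in NSCs, adjusted p = 7.3e-06 with limma). The summed level of the 24 was 345 to 5048 RPKM in NSC libraries and 11.6 to 265 RPKM in progenitor libraries, and that of the 32 primary cilium genes 349 to 3720 against 99.7 to 448 RPKM. At most 1 of the 24 was at 0 in an NSC library and up to 15 in a progenitor library. The part of multiciliated cells in the results for the primary cilium genes, Boc and Gli3 was not tested.

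**Figure D4:**
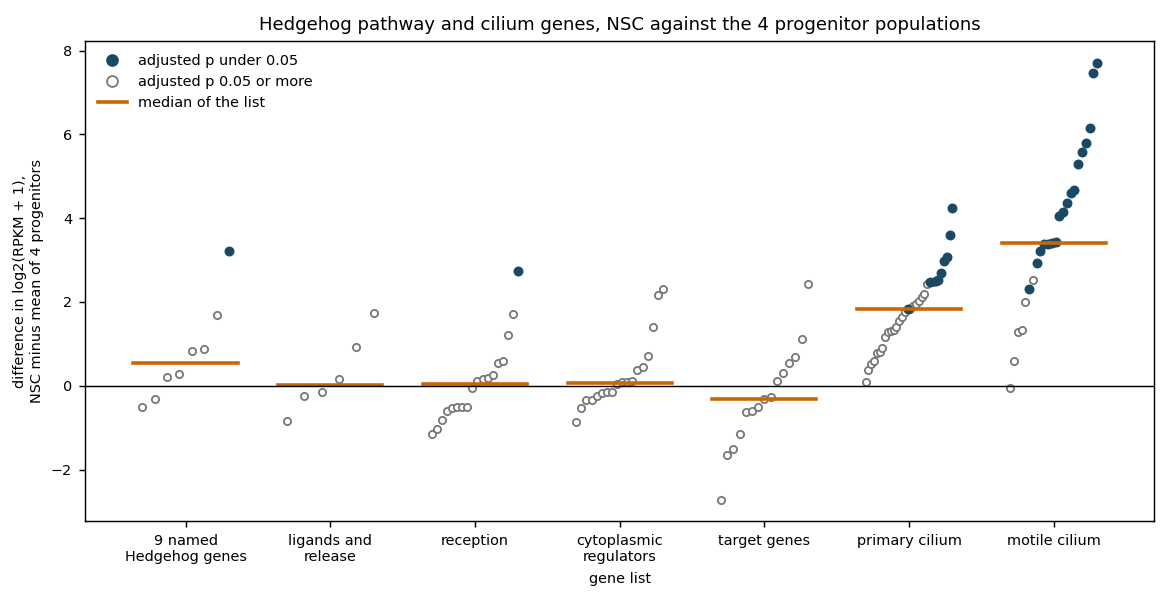
Difference in log2(RPKM + 1) of NSC from the mean of the 4 progenitors on the vertical axis, 1 point for each gene tested in the 9 Hedgehog genes, 4 further pathway lists and 2 cilium lists, filled where the adjusted p of limma was under 0.05, with a line at each list median. The medians of the pathway lists lie between -0.30 and 0.06, that of the Hedgehog genes at 0.55, of the primary cilium genes at 1.83 and of the motile cilium genes at 3.41.

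Across libraries, Boc and Gli3 were the members closest to Foxj1. After the mean of each batch was taken out, Pearson's r with Foxj1 over the 20 libraries was 0.970 for Boc, 0.831 for Gli3, 0.513 for Smo, 0.372 for Gli2, 0.370 for Gas1, 0.124 for Ptch1, -0.218 for Hhip and -0.224 for Sufu. Boc and Gli3 correlated with each other at r = 0.894. With Ift88, r was 0.921 for Boc and 0.848 for Gli3. Leaving out BNAP/GRP1 of batch 4 gave 0.978 for Boc, 0.872 for Gli3 and 0.520 for Gli2 with Foxj1 over 19 libraries. These are descriptions, since the 20 points share their batches and depths and fall into NSC and progenitor groups. The difference between these groups can set much of r, and its part in r was not tested. With 2 genes of astroglia and stem cells, r of Boc was 0.943 (Hopx) and 0.324 (Slc1a3), the latter 0.573 without BNAP/GRP1 of batch 4.

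**Figure D5:**
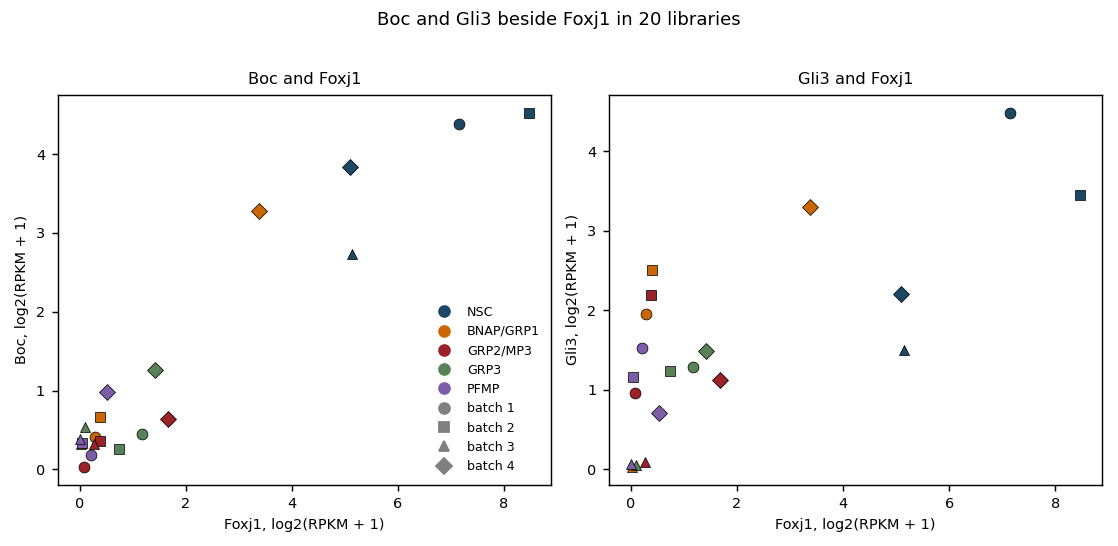
Levels of Boc and of Gli3, in log2(RPKM + 1) on the vertical axes, against Foxj1 in log2(RPKM + 1) on the horizontal axis, 1 point for each of the 20 libraries by population. NSC libraries, with Foxj1 at 33.1 to 352 RPKM, lie to the right, and BNAP/GRP1 of batch 4, with Foxj1 at 9.42 RPKM, lies between them and the other 15 progenitor libraries.

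Among other pairs of Hedgehog genes, Ptch1 and Gas1 had r = 0.752 and Gli2 and Gli3 r = 0.732 by the same measure. Among the genes most alike to each member over the 20 libraries, of all genes tested, were Virma (0.944) for Ptch1, Gm24636 (0.833) and Gm26661 (0.828) for Smo, Clcn3 (0.912) and Trim33 (0.908) for Gas1, and Gm43398 (0.864) and Nyap2 (0.858) for Hhip. For Sufu they were A130050O07Rik (0.957) and Tmem200a (0.952), for Gli2 F2rl3 (0.958) and Tex19.1 (0.952), for Gli3 Efcab11 (0.967) and A730032A03Rik (0.954), and for Boc 1700066J03Rik (0.988) and Marc1 (0.988). Without BNAP/GRP1 of batch 4 the values for Gli2 were 0.864 and 0.848.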

How the data were processed

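Libraries were sequenced on a NextSeq500 for 75 cycles from amplified polyadenylated RNA. The authors trimmed reads (FastQC 0.11.9, cutadapt 3.4), aligned them to GRCm38 with STAR 2.6.1, quantified transcripts with Salmon 1.9.0 and ran DESeq2 1.26.0, and they deposited RPKM values, read numbers scaled to the length of the transcript and to the size of the library. The table covers 20 libraries and 45705 genes. The gene lengths and read totals behind the RPKM, and whether counting used strand, are not given in the sources used here. The table held 26 empty columns, which were not used.

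RPKM are not counts, so limma 3.58.1 (R 4.3.3, trended prior) was fitted to log2(RPKM + 1) in place of DESeq2, over all 20 libraries with 1 mean for each of the 5 populations and no batch term. The 27614 genes that reached 1 RPKM in 4 or more libraries were tested, p-values were adjusted by Benjamini-Hochberg over all of them, and a gene was called at an adjusted p under 0.05. Tables and plots were made with Python 3.11.15 and matplotlib 3.10.9. Each progenitor was compared with NSC, NSC with the mean of the 4 progenitors, and the progenitors with each other. Scripts were tested on simulated data.

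Depth came from the whole-number steps of low values of single-transcript genes of at least 1500 bases, where 75.4% to 89.5% of such values were within 0.15 of a whole read. It gave about 9460000 to 114000000 reads in 16 libraries and no value in 4 libraries of batch 4, so read numbers and the limits of 3 reads are estimates that cover counting error only. From 20116 to 39689 genes were above 0 in a library.

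The batch number in the labels pairs the libraries of the 5 populations. Deviations from the population means had a median r of 0.337, 0.262, 0.769 and 0.581 between libraries of the same batch (lowest 0.034) and of -0.254 between batches. What a batch shares beyond its number is not stated in the labels.

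All 9 Hedgehog genes are named. From the other lists were named Shh, Ihh, Dhh, Cdon, Kif7, Evc, Evc2, Gpr161, Tulp3, Ift88, Arl13b, Foxj1 and every gene called against NSC, and for each Hedgehog gene tested the 2 genes of highest Pearson r. Some results that this rule names are not reported here. Genes called only with the batch block, Hopx, Slc1a3 and the markers of other cells were named after their values were seen. The Hedgehog genes and the lists were chosen with earlier results of these data known. Marc1 carries a date-like name in the table and was named through its identifier. Alternatives tried were another pseudocount, no filter and a stricter filter, 2 other scalings, the batch block, each library and each batch left out, and fits of the compared populations alone. Leaving out BNAP/GRP1 of batch 4 together with the block was chosen after seeing the data.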

Additional observations from a re-analysis of the deposited data

Results flagged for a closer look

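In groups of 4 libraries, a value was marked when its gap in RPKM to the nearest other library exceeded Dixon's 95% critical share of the group's range. In normally distributed values chance does this in about 1 of 20 groups. For RPKM, which need not be normally distributed, that rate is not known. Of 45 combinations of a Hedgehog gene and a population, 7 were marked, 4 of them in BNAP/GRP1 of batch 4, the library with the highest median over all genes. In that library Gli1 was at 6.55 RPKM (next highest BNAP/GRP1 library 1.08), Gli2 at 8.63 RPKM (0.546), Sufu at 13.8 RPKM (2.91) and Boc at 8.69 RPKM (0.582). Sufu in GRP2/MP3 of batch 2 was at 4.41 RPKM, above the next at 2.36 RPKM. Hhip in NSC of batch 4 was at 6.53 RPKM, against 0.58 RPKM in the next. Gas1 in BNAP/GRP1 of batch 3 was the low exception, at 1.86 RPKM with the other 3 libraries at 15.1 RPKM or more.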

How the results depend on the processing

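The 4 libraries of a population differ widely, and SEs were 0.59 to 0.96 on the log2 scale. Differences well above their SE were not called, such as that of Gli3 in GRP3 (-1.90, adjusted p = 0.562 with limma). A gene that was not called is therefore not shown to be unchanged. The number of Hedgehog genes called was 1 (Boc) in each comparison with NSC and changed as follows. With the stricter filter (mean RPKM of at least 5) Boc was not tested and the count was 0 in all 5. It was 0 for BNAP/GRP1 with a pseudocount of 0.1, with no filter, with batch 3 left out and the batch block, and with only the compared populations fitted. For GRP3 it was 0 with a pseudocount of 0.1 and with only the compared populations, and for PFMP 0 with the latter. With the replicate block it was 2 (Boc and Gli3) for PFMP and for NSC against the 4 progenitors, and with BNAP/GRP1 of batch 4 left out as well it was 2 for GRP2/MP3, GRP3, PFMP and NSC against the 4 progenitors. The block changed no other call of a Hedgehog gene. Leaving out a library or a batch gave 0 to 1 calls in each of the 5, with 0 without batch 1 and without batch 2 throughout, and the cause was not tested. Boc in NSC against the 4 progenitors then had adjusted p = 0.0708 and 0.0826 with limma. Direct comparisons of progenitors gave 0 under every setting run.

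Reversed differences, none of them called, were Smo in BNAP/GRP1 at 0.16 (batch 3 left out, with the block), Gli2 in BNAP/GRP1 at -0.21 (quantile normalization) and -0.27 (BNAP/GRP1 of batch 4 left out, with the block), and Sufu in BNAP/GRP1 at -0.068 (the same). With single libraries or batches left out, Ptch1 ranged from -0.79 to 0.26 in BNAP/GRP1, -1.18 to 0.25 in GRP2/MP3, -0.47 to 0.85 in GRP3, -0.78 to 0.24 in PFMP and -0.23 to 0.73 in NSC against the 4 progenitors. Smo in BNAP/GRP1 ranged from -0.73 to 0.64, Gli2 in BNAP/GRP1 from -0.45 to 0.64, Sufu in GRP2/MP3 from -0.11 to 0.48, Gas1 in GRP3 from -0.49 to 1.07, and Hhip from -0.78 to 0.22 in GRP2/MP3, -0.075 to 0.95 in PFMP and -0.96 to 0.037 in NSC against the 4 progenitors. In that comparison Ihh ranged from -0.24 to 0.43, Cdon from -0.63 to 0.65 and Evc2 from -0.084 to 0.39. Boc kept its direction in every setting that tested it.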
